A study of Mus musculus with 14 samples.

Results

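Fibin, Lrrc17, Gria1 and Srpx2 are 4 protein-coding genes, of 50686 genes in the count table, whose mRNA was raised most in late embryoid bodies (EBs) labelled as knocked down for Dis3l2. They were chosen by the readout itself. A total of 430 protein-coding genes held at least 10 CPM (reads normalized to a library total of 1000000 reads on genes) at d12 in 1 of the 2 libraries of that day and were at least 3-fold higher in the knockdown line at both d10 and d12. Ranked by the ratio at d12, the 4 genes took ranks 2 to 5, and Fmod, at rank 1, is not one of them. The member just inside was Srpx2, with a ratio of 54.8 after 0.25 reads, scaled to library size, were added to each count. The next genes outside were Thbs2 (42.4), Srpx (33.1) and Actg2 (33.1) on the same scale. The ratios between the lines at d10 and d12 made the choice, so they are given as a description without a test, and the libraries of d0 to d8 are the ones that the choice did not use.

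The mouse embryonic stem cells (ESCs) carried an Osr1-GFP reporter and stably expressed an shRNA against Dis3l2 (shDis3l2) or, as the isogenic control, a LacZ shRNA (shLacZ). Sampling took place in the undifferentiated state with LIF and 2i (d0) and, after both were withdrawn, in spontaneously differentiating EBs on every second day from d2 to d12. This gave 14 libraries of polyA RNA, 1 per line and day, so no difference on a single day has a replicate check. Each arm rests on 1 stable line, and whether that line is a single clone is not given in the sources used here. Between 7178712 and 39888099 reads per library were counted on genes. Counting intervals of 95% are given for levels (exact Poisson) and ratios (Clopper-Pearson). They cover counting error only, because each line and day has 1 library, and they compare libraries, not lines. Amplified reads that carry no molecular identifier can be copies of 1 molecule, so the intervals can be too narrow even for counting error. The floor of 3 reads corresponds to 0.0752 to 0.418 CPM, and a ratio against 0 reads is a lower bound against this floor. The targeted gene Dis3l2 had 28.7 CPM in the control and 3.93 CPM in the knockdown library of d0. It stood at 20.2 against 19.6 CPM at d8, 19.2 against 18.3 CPM at d10 and 19.7 against 14.9 CPM at d12. The libraries labelled shDis3l2 thus showed no detectably lower Dis3l2 at d8 (ratio 0.971, 0.837 to 1.13) and d10 (0.9498, 0.788 to 1.15). The name shDis3l2 is used below for the label of a library on every day.

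Of the 4 genes, 3 encode secreted proteins and 1 encodes a channel subunit. Fibin, the fin bud initiation factor, was described as a secreted protein needed for the start of the pectoral fin bud in fish. Lrrc17 encodes a secreted protein with leucine-rich repeats that restrains the formation of osteoclasts by RANK ligand. Srpx2 encodes a secreted protein with sushi repeats that binds the urokinase receptor and is known for roles in vessel growth and synapse formation. Gria1 encodes the GluA1 subunit of AMPA receptors, the glutamate-gated cation channels of fast excitatory synapses. EBs are aggregates in which ESCs form derivatives of the germ layers side by side, so their RNA is a mixture of cell types. In such bulk RNA, a change in the number of cells of a type and a change in RNA per cell cannot be told apart.

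The genes lie on 4 chromosomes of GRCm38. Fibin (ENSMUSG00000074971) is a single exon of 2267 bases at chr2:110360917-110363183 on the minus strand. Lrrc17 (ENSMUSG00000039883) lies at chr5:21543559-21575904 on the plus strand with 3608 exonic bases. Gria1 (ENSMUSG00000020524) spans 318858 bases at chr11:57011387-57330244 on the plus strand with 6043 exonic bases. Srpx2 (ENSMUSG00000031253) lies at chrX:133908426-133932446 on the plus strand with 2922 exonic bases. Promoter windows of 300 bases were taken from RefSeq on GRCm38.p6 for Fibin, Lrrc17 and Srpx2. They run from 250 bases before the RefSeq start to 50 bases after it. The shared rise of the genes at d10 and d12 was fixed by their choice, so the windows are given as a description. No window for Gria1 was used here. The Fibin window is chr2:110362944-110363243 (minus strand), the Lrrc17 window chr5:21543277-21543576 (plus strand) and the Srpx2 window chrX:133908175-133908474 (plus strand). The RefSeq start of Fibin lies inside the Fibin exon given above, so most of its window overlaps that exon and is not upstream of it. Capitals mark matches, on either strand, to the TATA box TATAAA, the CCAAT box, the GC box GGGCGG, the E-box CANNTG, the AP-1 site TGANTCA and the TEAD site GGAATG, none of which overlap each other.
Fibin: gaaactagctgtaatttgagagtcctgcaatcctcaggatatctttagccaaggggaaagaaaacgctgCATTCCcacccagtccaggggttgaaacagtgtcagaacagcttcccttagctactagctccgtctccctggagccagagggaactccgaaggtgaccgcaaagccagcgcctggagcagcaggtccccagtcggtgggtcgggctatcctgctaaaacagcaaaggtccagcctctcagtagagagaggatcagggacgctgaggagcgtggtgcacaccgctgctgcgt
Lrrc17: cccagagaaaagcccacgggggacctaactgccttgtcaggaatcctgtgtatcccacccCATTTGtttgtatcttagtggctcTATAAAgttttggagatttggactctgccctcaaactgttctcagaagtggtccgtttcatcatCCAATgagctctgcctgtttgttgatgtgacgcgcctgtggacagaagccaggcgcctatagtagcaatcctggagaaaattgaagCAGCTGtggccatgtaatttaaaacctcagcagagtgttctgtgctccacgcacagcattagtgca
Srpx2: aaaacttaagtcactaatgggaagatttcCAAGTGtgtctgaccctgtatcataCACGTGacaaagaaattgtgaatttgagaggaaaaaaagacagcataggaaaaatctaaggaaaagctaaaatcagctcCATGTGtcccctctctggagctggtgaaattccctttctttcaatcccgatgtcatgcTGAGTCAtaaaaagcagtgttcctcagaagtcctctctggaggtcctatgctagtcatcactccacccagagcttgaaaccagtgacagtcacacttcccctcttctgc
No motif was matched in all 3 windows. The Fibin window held 1 TEAD match, which 14.7% of 32851 windows of the same length hold, and no match to the other 5 motifs. That match, at -181 from the RefSeq start, lies within the Fibin exon of the count table. The Lrrc17 window held a TATA box match (13.6% of all windows), 1 CCAAT match (37.4%) and 2 E-box matches (72.3%). The Srpx2 window held 3 E-box matches and 1 AP-1 match, the latter found in 7.81% of all windows. None of the 3 held a GC box, which 35.7% of all windows hold. The base composition differed as well. The Fibin window had 56.3% GC and 11 CpG, the Lrrc17 window 48.7% GC and 6 CpG, and the Srpx2 window 43.3% GC and 2 CpG, against medians of 52.7% GC and 7 CpG over all windows. A match is a description of letters and says nothing of binding.

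Fibin was the member nearest to absence in the control line. In shLacZ it was counted with 0 reads on d0, d4, d6, d8 and d10 and with 1 read on d2 and on d12. In shDis3l2 it was counted with 0, 0, 3 and 1 reads on d0, d2, d4 and d6, all at or under the floor, and then with 33, 209 and 164 reads on d8, d10 and d12. These correspond to 1.68 CPM (1.16 to 2.36) at d8, 9.90 CPM (8.60 to 11.3) at d10 and 15.4 CPM (13.1 to 17.9) at d12. The lines therefore held no distinguishable Fibin up to d6, and from d8 the interval of shDis3l2 lay above that of shLacZ. The level at d8 was at least 9.46-fold higher in shDis3l2. At d10 it was at least 27.3-fold higher, and at d12 the ratio was 155 (27.4 to 6153), an interval set by the single read in shLacZ. Within shDis3l2, Fibin was 5.89-fold higher (4.07 to 8.79) at d10 than at d8 and 1.55-fold higher (1.26 to 1.91) at d12 than at d10.

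Lrrc17 reached 1 CPM in both lines at d6, at a higher level in shDis3l2, and was under it again at d12 in the control line. The CPM in shLacZ was 0.0501, 0.190, 0, 1.20, 5.15, 1.45 and 0.694 from d0 to d12. In shDis3l2 it was 0.0378, 0.0467, 0, 6.79, 28.4, 83.7 and 76.8 on the same days. Both lines were at 5 reads or fewer up to d4, and between d6 and d8 the level was multiplied by 4.28 (2.49 to 7.82) in shLacZ and by 4.19 (3.27 to 5.43) in shDis3l2. After d8 they parted. The level in shLacZ at d10 was 0.282 times that at d8 (0.140 to 0.518), whereas in shDis3l2 it was 2.94 times that at d8 (2.67 to 3.24). The ratio between the lines was 5.64 (3.25 to 10.4) at d6 and 5.53 (4.40 to 7.01) at d8, and the choosing days gave 57.6 (32.9 to 112) at d10 and 111 (53.4 to 276) at d12. The shLacZ maximum of 5.15 CPM at d8 was exceeded in shDis3l2 from d6 on.

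Srpx2 was low in both lines until d6. In shLacZ it was counted with 0, 1, 0, 7, 8, 1 and 3 reads from d0 to d12, and its highest level was 0.526 CPM at d6. In shDis3l2 it was counted with 0, 0, 0, 4, 61, 236 and 182 reads, or 0.377 CPM (0.103 to 0.965) at d6, 3.10 CPM (2.37 to 3.99) at d8, 11.2 CPM (9.80 to 12.7) at d10 and 17.0 CPM (14.7 to 19.7) at d12. At d6 the depth showed no difference, with a ratio of 0.717 (0.154 to 2.82), and at d8 the intervals of the libraries no longer met. The ratio was 6.56 (3.13 to 15.9) at d8, then 92.3 (16.4 to 3662) at d10 and 57.3 (19.3 to 280.3) at d12. Like Fibin, Srpx2 was higher at d12 than at d10 in shDis3l2, by 1.52-fold (1.25 to 1.86).

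Gria1 had a level of its own on d2 that the 3 genes for secreted proteins did not have. In shLacZ it was counted with 1, 36, 1, 0, 3, 4 and 3 reads from d0 to d12, and in shDis3l2 with 0, 9, 2, 0, 55, 781 and 213 reads. At d2 it stood at 1.36 CPM (0.956 to 1.89) in shLacZ and 0.421 CPM (0.192 to 0.798) in shDis3l2, a ratio of 0.308 (0.131 to 0.652), so that at this first EB stage it was the control library that held more. At d6 both libraries held 0 reads, with floors of 3 reads equal to 0.225 CPM for shLacZ and 0.283 CPM for shDis3l2. Gria1 reached 2.80 CPM (2.11 to 3.64) in shDis3l2 at d8 against 0.177 CPM in shLacZ, a ratio of 15.8 (5.12 to 78.8). At d10 it stood at 37.0 CPM (34.4 to 39.7) in shDis3l2, 13.2-fold (10.0 to 17.7) above d8. At d12 it stood at 19.9 CPM (17.4 to 22.8), 0.539 times the d10 level (0.461 to 0.628), so the highest Gria1 level was that of d10, while those of Fibin and Srpx2 were those of d12. The ratios that chose it were 76.4 (29.7 to 281) at d10 and 67.0 (22.6 to 328) at d12.

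**Figure D1:**
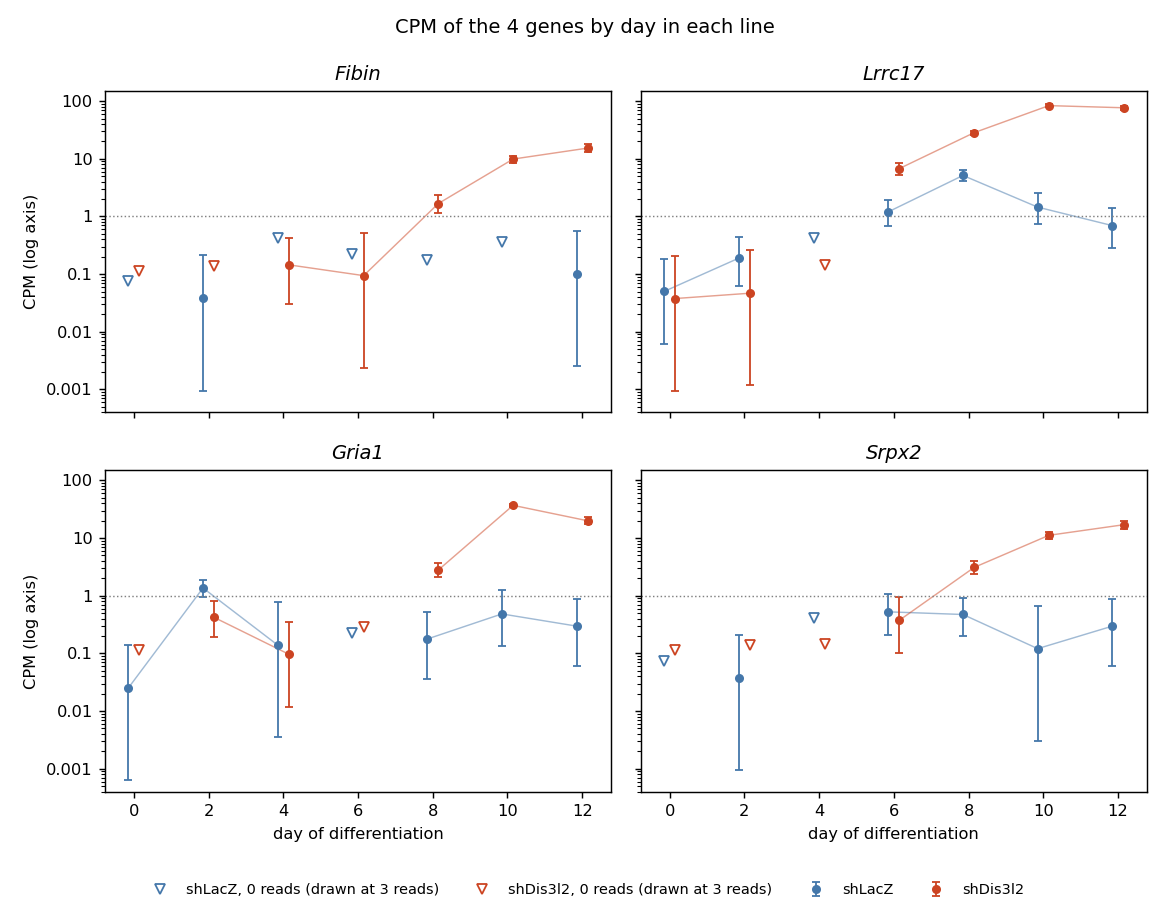
CPM on a log axis against day of differentiation for each of the 4 genes, in shLacZ (blue) and shDis3l2 (red), 1 library per point with its exact 95% Poisson interval; open triangles are libraries with 0 reads, drawn at the floor of 3 reads, and the dotted line is 1 CPM. In shDis3l2 Lrrc17 passes 1 CPM from d6 and the other 3 from d8, while in shLacZ only Lrrc17, on d6 to d10, and Gria1, on d2, reach it.

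Onset was taken as the first day with at least 1 CPM that was held on every later day. By this measure the onset in shDis3l2 was d6 for Lrrc17 and d8 for Fibin, Gria1 and Srpx2, while in shLacZ none of the 4 genes had an onset. With 0.5 CPM as the limit Lrrc17 had one in shLacZ as well, at d6, and with 2 CPM that of Fibin in shDis3l2 was d10. Lrrc17 was at or above 1 CPM in shLacZ on 3 days but not at d12, Gria1 on 1 day, and Fibin and Srpx2 on none. The size of the late rise was read from d6 to d12 within each line. In shDis3l2 it was 163-fold for Fibin (28.8 to 6475, from 1 read), at least 70.5-fold for Gria1 (from 0 reads), 45.2-fold for Srpx2 (17.4 to 168, from 4 reads) and 11.3-fold for Lrrc17 (8.89 to 14.6, from 72 reads). These factors start from unequal and mostly few reads, and the added CPM gave another order, with 70.0 CPM for Lrrc17, 19.9 for Gria1, 16.7 for Srpx2 and 15.3 for Fibin. In shLacZ the change from d6 to d12 was 0.577-fold for Lrrc17 (0.201 to 1.48) and 0.565-fold for Srpx2 (0.0944 to 2.48), neither distinguishable from no change, and Fibin and Gria1 had 3 reads or fewer on both days.

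How many other genes differed on each day sets the scale for these ratios. Over protein-coding genes with at least 1 CPM in 1 library of the day, the share at least 3-fold higher in shDis3l2 was 0.584% at d0, 0.114% at d2 and 0.361% at d4. No member reached 1 CPM on d0 or d4, and at d2 Gria1, the 1 member that did, was not among them. It was 2.7% at d6, where Lrrc17 alone of the 4 could be compared and was among them. It was 5.47% at d8 (737 of 13462 genes), with all 4 members at or above that ratio. Fibin, Gria1 and Srpx2 reached 1 CPM at d8 through the shDis3l2 library alone, so they could enter only by being high there, and their number is no support. At d10 and d12, which made the choice, the share was 8.65% and 8.1%.

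**Figure D2:**
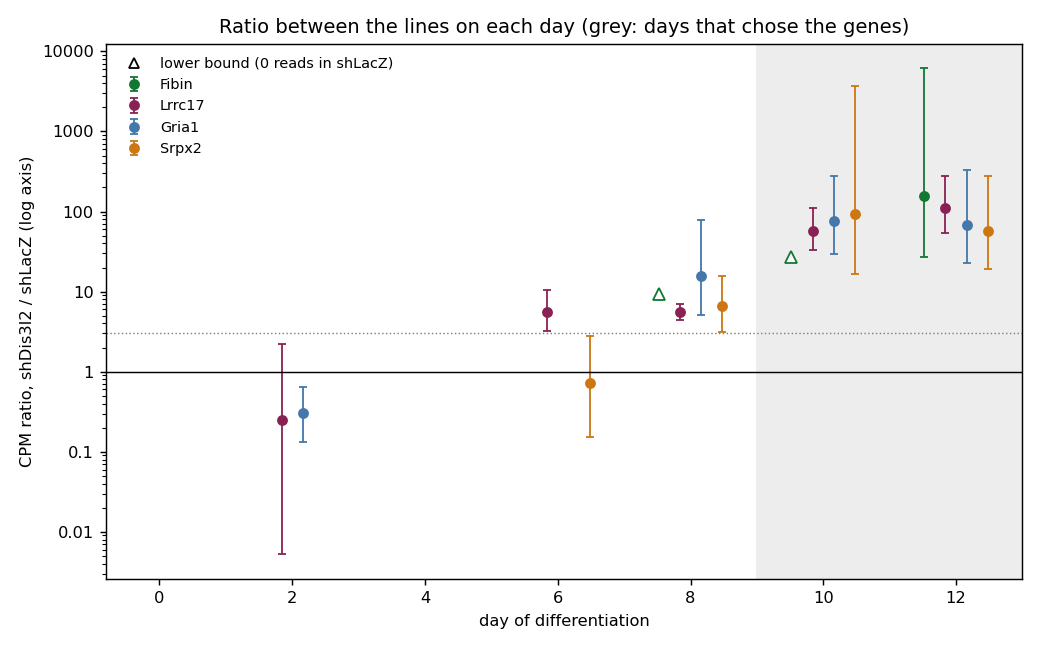
Ratio of CPM in shDis3l2 over shLacZ on a log axis for each day on which it can be given, with its 95% Clopper-Pearson interval, 1 library per line; triangles are lower bounds, the solid line is equal levels, the dotted line is 3-fold and the grey area holds the days that chose the genes. At d2 Gria1 lies below 1, at d6 Lrrc17 lies above 3 while Srpx2 spans 1, and at d8 all 4 lie above 3.

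Whether the lines differed over the days the choice did not use was asked with edgeR (quasi-likelihood F test) over the 10 libraries of d0 to d8, in which the 5 days of 1 series stand in for replicates, so the tests do not set the lines against other cultures. With day as a block, 0.0% of 19588 genes were called higher at an adjusted p under 0.05, and 0 were called in either direction by edgeR, with 2420 at an unadjusted p under 0.05 and 282 called by DESeq2. Lrrc17 differed by a log2 value of 1.81 (standard error 0.59, edgeR adjusted p = 0.324), Srpx2 by 1.22 (standard error 0.84, edgeR adjusted p = 0.575) and Gria1 by 0.53 (standard error 1.05, edgeR adjusted p = 0.859). None of these passed. With DESeq2 the log2 differences were 1.20 for Lrrc17, 0.20 for Srpx2 and 0.08 for Gria1, and without d6 that of Srpx2 was 2.12 by edgeR. Without the minimum of 50 reads, edgeR called 787 genes and the adjusted p of Lrrc17 was 0.00957. Fibin, with 38 reads in these libraries, lay under the minimum and was not tested in the main setting, and without the minimum its edgeR adjusted p was 0.104. Without d2 the log2 difference of Gria1 was 2.58 (edgeR adjusted p = 0.392).

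A difference that grows with day was tested in the same libraries by the product of line and day. Of 19588 genes, 2.12% were called with a rising difference (415 genes) and 397 with a falling one by edgeR, while with library totals in place of TMM scaling the split was 579 against 150. Gria1 was among the 415, with a log2 difference that changed by 0.91 per day (standard error 0.17, edgeR adjusted p = 0.0286). It lay below the control at d2 and above it at d8. Of its 107 reads in these libraries, 55 were from the shDis3l2 library of d8, and the 41 reads of shLacZ alone would not have reached the minimum of 50, so Gria1 entered the test through the libraries in which it was high and the call is no support. The call was lost without d0 (0.93 per day, edgeR adjusted p = 0.0535), without d2 (1.004 per day, edgeR adjusted p = 0.182) and without d6 (0.91 per day, edgeR adjusted p = 0.0529), and without d8 Gria1 fell under the minimum. Srpx2 changed by 1.12 per day (standard error 0.37, edgeR adjusted p = 0.133) and Lrrc17 by 0.45 per day (standard error 0.18, edgeR adjusted p = 0.170), and neither passed. The Srpx2 value was 0.36 per day with DESeq2 and 0.71 per day without d6, and the Lrrc17 value was 0.26 per day without d2 and 0.71 per day without d8. Srpx2 also entered through shDis3l2, with 65 reads there, 61 of them at d8, and 16 in shLacZ. Without d8 Srpx2 too had too few reads to test.

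Set against each other per length of exon (RPKM, the CPM per 1000 bases), the 4 genes did not keep one order in shDis3l2. Lrrc17 was highest on each day from d6, at 1.88, 7.88, 23.2 and 21.3 RPKM, and its interval did not meet that of any other member on these days. At d8 Srpx2 followed at 1.06 RPKM (0.813 to 1.36), then Fibin at 0.741 (0.510 to 1.04) and Gria1 at 0.463 (0.349 to 0.603), and the intervals of Srpx2 and Fibin and of Fibin and Gria1 overlapped. At d10 Gria1 was the second at 6.12 RPKM (5.70 to 6.57), above Fibin at 4.37 (lower bound 3.79) and Srpx2 at 3.83 (3.35 to 4.35), the latter pair not distinguishable. At d12 Gria1 was the lowest at 3.30 RPKM (2.87 to 3.77), below Fibin at 6.77 (5.78 to 7.89) and Srpx2 at 5.83 (5.02 to 6.74), whose intervals again overlapped. On this scale 87.5% of expressed protein-coding genes lay below Lrrc17 at d12, 64.8% below Fibin, 61.9% below Srpx2 and 51.7% below Gria1.

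**Figure D3:**
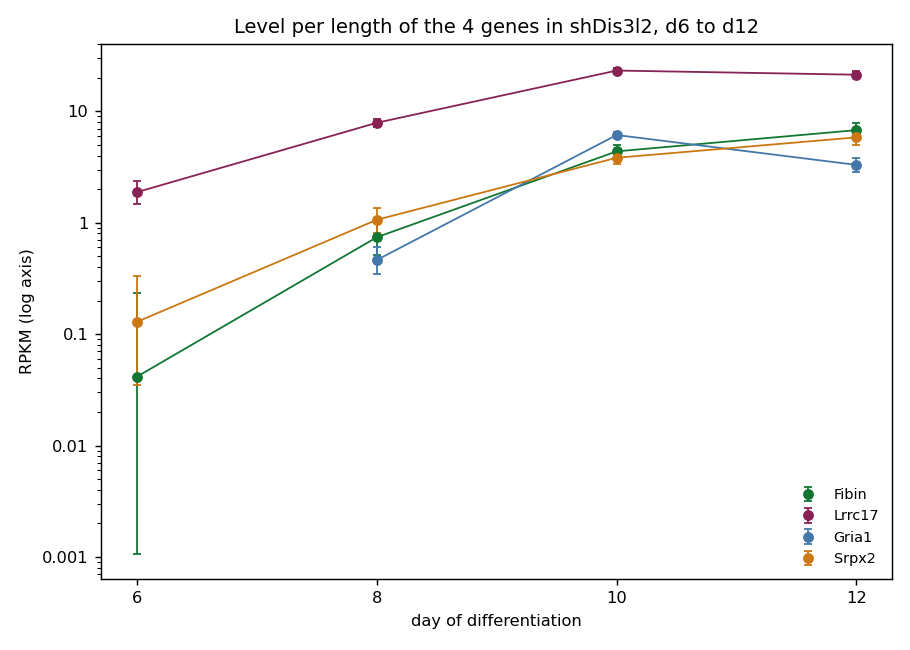
RPKM on a log axis in shDis3l2 at d6, d8, d10 and d12 for the 4 genes, 1 library per point with its exact 95% Poisson interval; Gria1 is not drawn at d6, where it had 0 reads. Lrrc17 lies above the others on each of these days, and Gria1 goes from the lowest at d8 to the second at d10 and back to the lowest at d12.

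Likeness of pattern was measured as Pearson's r of log2(CPM + 1) over the 14 libraries, among 15350 protein-coding genes. The libraries include those that chose the members and are shared by all genes with their line, day and depth, so the values are a description. Fibin and Srpx2 were the most alike of the 4 (r = 0.983), followed by Fibin and Gria1 (0.963). Gria1 and Srpx2 had r of 0.941. Lrrc17, the early one, had r of 0.886 with Fibin, 0.852 with Gria1 and 0.941 with Srpx2. The genes most like Fibin were Gsg1l, an auxiliary subunit of AMPA receptors, Lrrc4c, Mstn (myostatin, an inhibitor of muscle growth), Fxyd1 and Gper1, with r from 0.985 to 0.991. Those most like Lrrc17 were Pcdhga6, Sparcl1, Evx2, Kcnb2 and Il11ra2 (r from 0.975 to 0.990). Sparcl1, a matrix protein, stood at 53.1 CPM at d12 in shDis3l2 against 3.27 CPM in shLacZ, and the others were at 11.8 CPM or less in both lines on that day. Those most like Gria1 were Lrfn5, Ccl6, Muc4, Mstn and Angptl7 (r from 0.974 to 0.982). Besides Fibin itself, Srpx2 had Fxyd1, Olfr1033, Rtp4 and Fmod, a small leucine-rich proteoglycan, among its nearest (r from 0.983 to 0.987). Mstn was thus shared by Fibin and Gria1, and Fxyd1 by Fibin and Srpx2.

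The neighbouring genes that could be compared at d8 had ratios between the lines of 0.616 to 2.15, below those of the members. Armc10 and Fam185a, which flank Lrrc17, had ratios of 1.03 (0.933 to 1.13) and 0.616 (0.488 to 0.775) in that day's libraries, beside 5.53 for Lrrc17. Fam114a2, next to Gria1, had 1.05 (0.973 to 1.14), and Nmur2, on its other side, had 0 reads. Beside Srpx2, Tspan6 had 2.15 (1.91 to 2.42) and Sytl4 1.505 (0.891 to 2.60). On the choosing day d12 Tspan6 had 2.22 (1.88 to 2.64) and Sytl4 4.25 (1.40 to 17.3, from 18 and 4 reads). Armc10, Fam185a and Fam114a2 had 1.26 (1.10 to 1.43), 1.001 (0.706 to 1.42) and 0.989 (0.889 to 1.10) at d12. Bbox1 and Slc5a12, the neighbours of Fibin, were at or under the floor. Fbxl13 lies across Lrrc17 on the other strand with overlapping exons, and a strand setting is not given in the sources used here. It was counted with 1, 4 and 2 reads at d8, d10 and d12 in shDis3l2 and with 0 in shLacZ, beside 559, 1767 and 820 reads for Lrrc17 in shDis3l2.

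The partners of each protein were followed in lists, and the genes that the edgeR test of a growing difference called are named after their values were seen. That test called 2.12% of all genes as rising, the share beside which the counts of each list stand. Of the other ionotropic glutamate receptor subunits, 14 of 17 could be tested by edgeR. The difference rose for Gria3, an AMPA receptor subunit (0.29 per day, edgeR adjusted p = 0.0467), and Grin2c, an NMDA receptor subunit (0.55 per day, edgeR adjusted p = 0.0154), and fell for the kainate receptor subunit Grik3 (-0.23 per day, edgeR adjusted p = 0.0458). At d8, 4 of 12 compared subunits were at least 3-fold higher and 1 lower, beside the 5.47% of all genes. Grin2a, among the higher ones, reached 1 CPM at d8 only in shDis3l2 and could enter only by being high there. Of the other AMPA receptor genes, Gria2 had a ratio of 2.17 (1.70 to 2.78) at d8, Gria3 2.67 (2.31 to 3.11) and Gria4 1.24 (0.836 to 1.86), while Gria1 had 15.8 (5.12 to 78.8). At d12 Gria4 had 6.44 (4.10 to 10.6) and Gria3 3.74 (3.06 to 4.60), with 44.9 CPM for Gria3 against 12.0 CPM in shLacZ. Among 17 tested auxiliary and scaffold genes of AMPA receptors, edgeR called 1, Cacng7, as rising (0.25 per day, edgeR adjusted p = 0.0428). At d8, 0 of 12 compared genes of this list were at least 3-fold higher in shDis3l2, beside 5.47% of all genes. At d12, 6 of 15 were higher and 1 was lower, beside 8.1% of all genes higher. Among the 6, Gsg1l, Cacng8 and Shisa9 reached 1 CPM at d12 only in shDis3l2, so they could enter only by being high there. Gsg1l had 33.5 (8.94 to 282) at d12, while Shisa6 had 0.244 (0.146 to 0.394). The scaffold genes Dlg1 and Pick1 had ratios of 0.960 (0.892 to 1.03) and 1.14 (0.966 to 1.33) at d12, and Dlg4 had 3.34 (2.76 to 4.07).

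**Figure D4:**
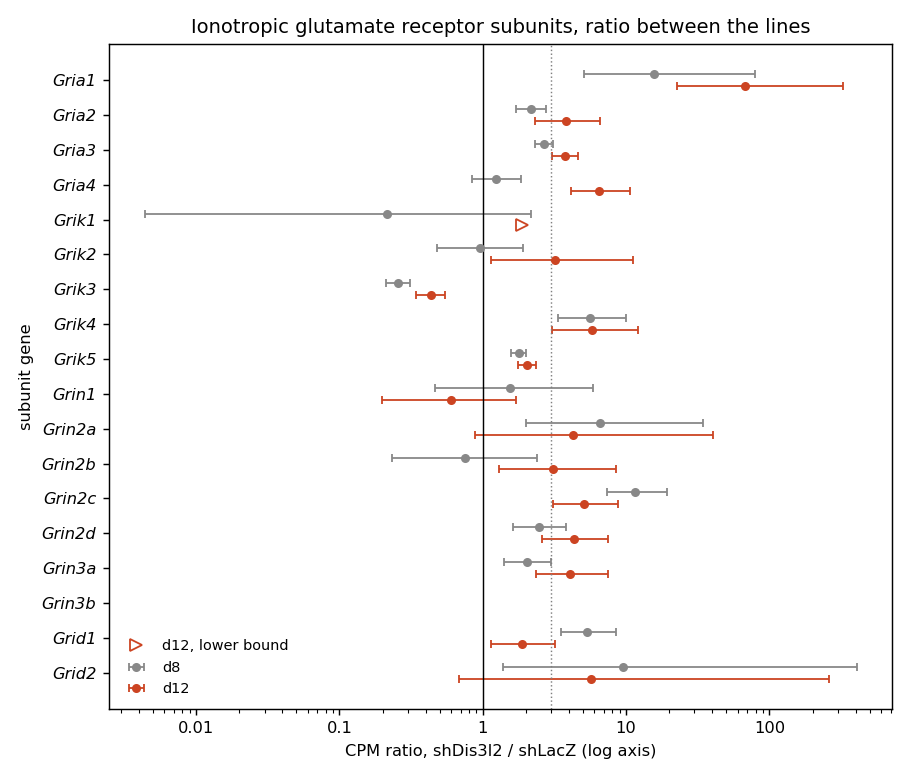
Ratio of CPM in shDis3l2 over shLacZ on a log axis for Gria1 and the 17 other ionotropic glutamate receptor subunit genes at d8 (grey) and d12 (red), 1 library per line and day, with 95% Clopper-Pearson intervals; the triangle is a lower bound and Grin3b had too few reads for a ratio. Of the subunits drawn Gria1 has the highest ratio at d12, 67.0, Grik3 lies below 1 on both days, and Gria2, Gria3 and Gria4 lie at or below 6.44.

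For Srpx2, 4 of 12 compared genes of the urokinase receptor system and its partners were at least 3-fold higher in shDis3l2 at d8, beside 5.47% of all genes, and 6 of 12 at d12, beside 8.1%, with 0 at least 3-fold lower on either day. Srpx, counted as higher on both days, reached 1 CPM on them only in shDis3l2 and could enter only by being high there. Plau, the urokinase itself, had a ratio of 2.74 (1.97 to 3.86) at d8 and 3.01 (2.40 to 3.81) at d12. Plaur, which encodes the urokinase receptor that Srpx2 binds, was lower in shDis3l2 on every day other than d2, also before Srpx2 rose, with 2.66 against 12.0 CPM at d4 and 11.7 against 31.2 CPM at d6. It stood at 20.6 CPM in shDis3l2 and 36.3 CPM in shLacZ at d8, a ratio of 0.568 (0.4999 to 0.645), and at 37.6 against 90.8 CPM at d12, a ratio of 0.414 (0.368 to 0.466). Plat, the tissue plasminogen activator, had 0.555 (0.517 to 0.596) at d12, and Serpine2, an inhibitor of such proteases, 2.44 (2.19 to 2.74). Srpx, the closest relative of Srpx2 and one of the genes ranked just outside the choice, had 24.9 (6.60 to 211) at d8 and stood at 10.3 CPM in shDis3l2 at d12. Of the 12 tested genes of this list, edgeR called 0 in the test of a growing difference, with 6 at an unadjusted p under 0.05, while DESeq2 called 1 as rising and 1 as falling, and the list median was 0.18 per day against -0.0035 over all genes. For Lrrc17, 2 of 9 compared genes of the RANK ligand axis were at least 3-fold higher at d12, beside 8.1% of all genes. They were Csf1r with 3.88 (3.16 to 4.80) and Tnfrsf11a, the RANK receptor, with 5.19 (1.76 to 20.7). Tnfrsf11a reached 1 CPM at d12 only in shDis3l2. At d8, 0 of 6 were at least 3-fold higher, beside 5.47% of all genes, and Csf1r had 0.727 (0.546 to 0.967). Tnfsf11, the gene of the ligand, had 0.172 (0.0319 to 0.608) at d8, under 1 CPM in both libraries, and 0.787 (0.305 to 1.99) at d12. In the test of a growing difference edgeR called 0 of 10 genes of this list, with 1 at an unadjusted p under 0.05, while DESeq2 called 1 as falling. Traf6 and Nfatc1, which act downstream of RANK, had ratios of 0.876 (0.766 to 1.002) and 1.01 (0.830 to 1.22) at d12. Among 20 tested extracellular leucine-rich repeat genes, edgeR called Lrrn2 (0.38 per day, adjusted p = 0.0479) and Slit3 (0.33 per day, adjusted p = 0.0340) as rising. Islr, of the same list, had 4.17 (3.27 to 5.37) at d8 and 20.1 (15.0 to 27.6) at d12.

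For Fibin, limb and lateral plate mesenchyme genes were taken as the setting in which it is known. Of 15 tested, edgeR called 4 with a difference that rose with day, Tbx4 (0.79 per day, adjusted p = 0.0155), Hand2 (0.72 per day, adjusted p = 0.0154), Twist1 (0.40 per day, adjusted p = 0.0245) and Prrx2 (0.33 per day, adjusted p = 0.0346), and 0 with a falling one, beside 2.12% of all genes called as rising. All 4 are transcription factors of limb or lateral plate mesenchyme. The test covers d0 to d8 only, and all 4 had a lower ratio between the lines at d12 than at d8. The ratios were 24.5 at d8 and 8.39 at d12 for Tbx4, and 3.73 and 2.24 for Hand2. Twist1 had 2.30 and 1.26 (0.969 to 1.63 at d12), and Prrx2 had 4.89 and 1.59. At d8, 9 of 13 compared genes of the list were at least 3-fold higher in shDis3l2, beside 5.47% of all genes, with a median log2 ratio of 1.90 against 0.03 over all compared genes. Among the 9, Tbx5 and Osr1 reached 1 CPM at d8 only in shDis3l2, so they could enter only by being high there. The summed level of the list peaked at d8 in shDis3l2, at 439 CPM, and stood at 277 CPM at d10. Fibin was then at 9.90 CPM and not yet at its highest level. Genes with high CPM weigh most in this sum, and its course is not that of every gene. In shDis3l2 Tbx4 fell from 117 CPM at d8 to 46.98 CPM at d10, and Hand2 from 98.9 to 62.3 CPM. Aldh1a2 instead rose from 16.7 CPM at d8 to 30.5 CPM at d10 and 33.8 CPM at d12. Osr1, Osr2, Meox2, Tbx18 and Fgf10 also rose from d8 to d10 and from d10 to d12.

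Markers of several cell types differed between the same libraries, and their part in the rise of the 4 genes was not tested. Mesenchyme-like markers summed to 209 to 427 CPM in shDis3l2 up to d4 and to 12780 CPM at d8 and 19294 CPM at d12, against 2594 and 2091 CPM in shLacZ on the latter days. Of 13 tested, edgeR called 6 with a rising difference (Col1a2, Col5a1, Fbn1, Fstl1, Pdgfrb and Vim) and 0 with a falling one, beside 2.12% of all genes called as rising, and at d8, 9 of 13 compared were at least 3-fold higher, beside 5.47% of all genes. None of the 14 was at 0 reads in shDis3l2 at d12. Most of the sum at d12 in shDis3l2 came from Col1a1 (3539 CPM), Col1a2 (3113 CPM) and Col3a1 (7939 CPM), so its course is not that of every gene. Thy1 was lower at d8, with 0.463 (0.282 to 0.747), and higher at d12, with 2.62 (1.78 to 3.95). Pdgfra had 1.19 (1.15 to 1.23) at d8 and 1.31 (1.26 to 1.36) at d12. Smooth muscle-like markers summed to 2135 CPM in shDis3l2 and 161 CPM in shLacZ at d8, and 481 and 71.8 CPM at d12. Most of these sums came from Acta2, with 1838 CPM in shDis3l2 and 136 CPM in shLacZ at d8. Of 6 tested, edgeR called 1, Tagln, as rising, beside the 2.12% of all genes. Visceral endoderm-like markers were lower in shDis3l2, with 841 CPM at d8 against 3513 CPM. Of 7 tested, edgeR called 1, Cubn, as falling, beside 397 of 19588 genes called as falling. Pluripotency genes summed to 113 CPM in shDis3l2 and 431 CPM in shLacZ at d8, to 205 and 538 CPM at d10, and to 373 and 541 CPM at d12. At d8, 6 of 8 compared were at least 3-fold lower, beside 499 of 13462 genes, and at d12 0 of 8 were. Of 8 tested, edgeR called 1, Esrrb, as falling.

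Gria1 is best known from neurons, and the neural-like markers were followed beside it. Their sum was 76.2 CPM in shDis3l2 and 65.1 CPM in shLacZ at d8, 62.9 and 93.8 CPM at d10, and 85.9 and 124 CPM at d12. At d6, 2 of 6 compared were at least 3-fold higher and 1 was lower, with Tubb3 at 93.5 against 12.0 CPM. At d8, 1 of 8 was higher, Dcx with 4.51 (1.52 to 18.1). Elavl3, an RNA-binding protein of neurons, was the 1 lower, with 0.237 (0.0937 to 0.532). Dcx reached 1 CPM at d8 only in shDis3l2 and Elavl3 only in shLacZ. Below 3-fold at d8, Tubb3 had 2.37 (1.92 to 2.95) and Gap43 2.45 (2.09 to 2.89), while Stmn2 had 0.402 and Nefl 0.629. At d10, 0 of 9 were higher and 3 lower. Of 9 compared at d12, 0 were at least 3-fold higher and 2 were lower, beside 197 of 13982 genes lower. The 2 were Sox1 with 0.167 (0.0894 to 0.291) and Elavl3 with 0.283 (0.118 to 0.612). Slc17a6, a glutamate transporter of excitatory neurons, was at 0 reads in both lines at d12, and edgeR called 0 of 16 in the test of a growing difference, with 6 at an unadjusted p under 0.05 and 1 called by DESeq2. Glia-like markers summed to 13.7 CPM or less in every library, and Olig1 and S100b were at 0 reads in shLacZ at d12. Skeletal muscle-like markers summed to 12.1 CPM or less, with Myod1, Myf5, Myog, Myf6 and Ckm at 0 reads in shDis3l2 at d12, although Mstn followed Fibin and Gria1. Chondrocyte and osteoblast-like markers summed to 36.9 CPM or less, with Matn1 and Ibsp at 0 reads in both lines at d12. Blood-like markers peaked at d8 in both lines, at 1288 CPM in shDis3l2 and 791 CPM in shLacZ, cardiomyocyte-like markers stood at 113 against 40.6 CPM at d8, and endothelial-like markers at 418 against 230.0 CPM. At d12 the blood-like sums were 41.3 CPM in shDis3l2 and 7.14 CPM in shLacZ, with 5 of 5 compared genes at least 3-fold higher beside 8.1% of all genes. Gata1, among these 5, reached 1 CPM at d12 only in shDis3l2 and could enter only by being high there. The cardiomyocyte-like sums were 123 and 70.2 CPM at d12, with 4 of 7 compared genes at least 3-fold higher, and the endothelial-like sums were 201 and 211 CPM, with 1 of 6. In the test of a growing difference edgeR called 0 of 5 tested blood-like, 0 of 7 cardiomyocyte-like, 0 of 6 endothelial-like, 0 of 4 glia-like, 0 of 3 skeletal muscle-like and 0 of 5 chondrocyte and osteoblast-like genes, with 3 cardiomyocyte-like, 1 endothelial-like and 1 chondrocyte and osteoblast-like gene at an unadjusted p under 0.05, and DESeq2 called 0 of them.

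**Figure D5:**
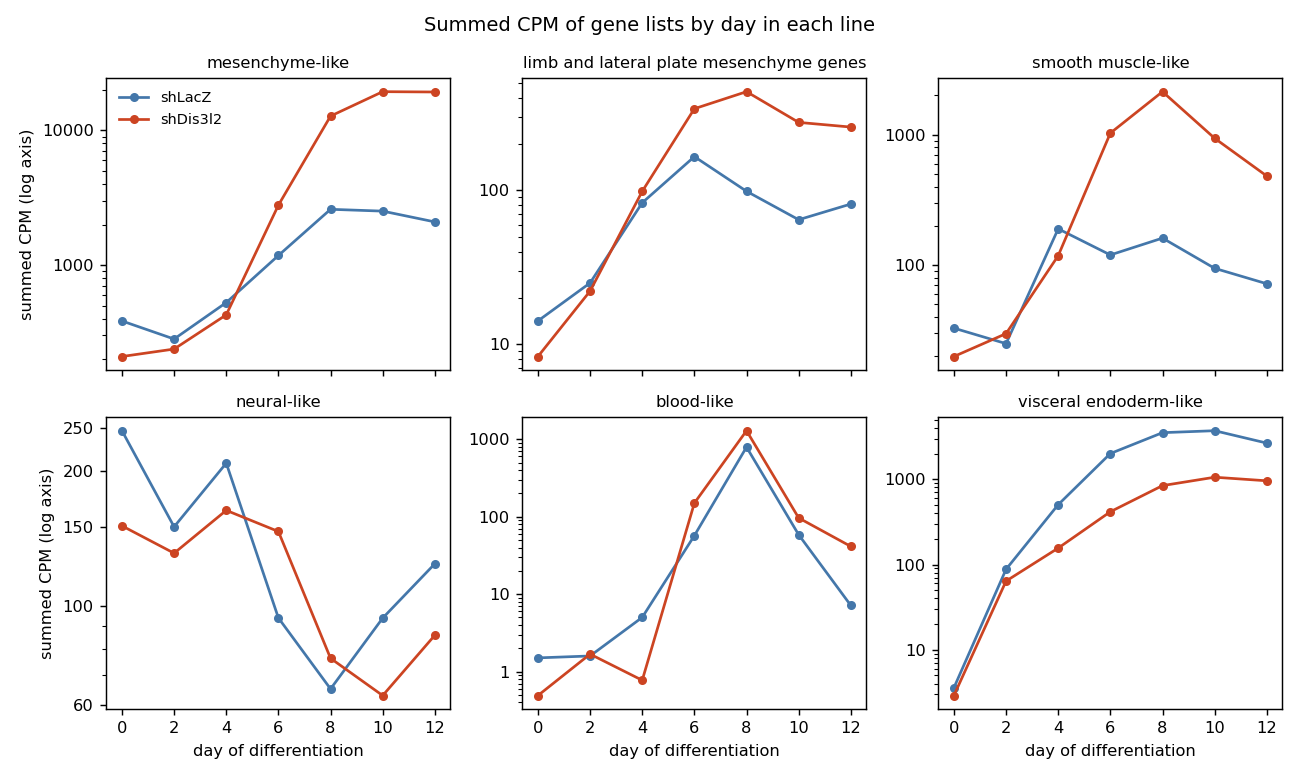
Summed CPM on a log axis against day of differentiation for 6 gene lists in shLacZ (blue) and shDis3l2 (red), 1 library per point. Mesenchyme-like and smooth muscle-like sums separate from d6 with shDis3l2 above, visceral endoderm-like sums lie lower in shDis3l2 from d2, and neural-like sums cross, ending at 85.9 CPM in shDis3l2 and 124 CPM in shLacZ at d12.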

How the data were processed

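PolyA RNA of 14 libraries was analysed. The authors sequenced it, aligned the reads to GRCm38 (Ensembl 88) with Subread, counted reads per gene with featureCounts and deposited the whole counts without normalization. The authors also deposited CPM values of protein-coding genes made with edgeR, used here as an alternative. Symbols were taken from the CPM table and GENCODE M21.

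The members and all 17 gene lists were chosen with earlier results of these data known. CPM was computed from the counts over all genes. Differences over d0 to d8 were fitted by quasi-likelihood F tests (edgeR 4.0.16, R 4.3.3) after TMM scaling (genes with at least 50 reads summed over the 10 libraries), with Benjamini-Hochberg adjusted p. DESeq2 1.42.0, library totals, other filters and leaving out each day were the alternatives. TMM factors were 0.711 and 0.623 at d0 and 1.02 to 1.15 otherwise. Scripts were tested on simulated data. Named genes are the 4 members, the 3 ranked next, the 5 most alike per member, their neighbours, Dis3l2 and, of each list, up to 4 genes with the highest CPM at d12 in shDis3l2 and those at least 3-fold changed at d12 where there are 4 or fewer. Genes named outside this rule were chosen after their values were seen. Python 3.11.15 was used for the other steps.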

Additional observations from a re-analysis of the deposited data

Results flagged for a closer look

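Lrrc17 moved in opposite directions in the lines after d8. Its CPM at d12 was 0.135 times that at d8 in shLacZ (95% interval 0.0527 to 0.290, 1 library each) and 2.70 times in shDis3l2 (2.42 to 3.01). The difference between these directions was not tested, and the level at d12 took part in the choice of the gene. The difference between the lines in Gria1 changed with day over d0 to d8, by 0.91 per day on the log2 scale (edgeR adjusted p = 0.0286). Gria1 was lower in shDis3l2 at d2 and higher at d8, and the call was lost without d0, d2 or d6. It could not be tested without d8, since 55 of its 107 reads came from the shDis3l2 library of that day and the 41 reads of shLacZ alone lie under the minimum of 50, so the call is no support.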

How the results depend on the processing

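For the 4 genes, no ratio between the lines changed direction with TMM scaling, DESeq2 size factors or the deposited CPM, and neither did the changes from d6 to d12. Of the other ratios printed for d8 and d12, those of Armc10 at d8 (1.03, and 0.989 with TMM), Fam185a at d12 (1.001, and 0.935 with TMM) and Nfatc1 at d12 (1.01, and 0.942 with TMM) changed side of 1, an alternative chosen after seeing the data. The number of members with an onset in shLacZ was 0, and 1 at 0.5 CPM. The onset of Fibin in shDis3l2 moved to day 10 at 2 CPM. The numbers of genes at least 3-fold higher on d0 to d12 were 20, 3, 14, 187, 456, 752 and 668 with a minimum of 5 CPM, and 120 at d0 with TMM scaling against 71. For the line difference over d0 to d8 edgeR called 0 genes, DESeq2 282 and edgeR without the minimum of reads 787. For the change with day the counts were 812, 1908 and 1470, and between 58 (without d8) and 869 (without d4) when 1 day was left out. The Gria1 change was 0.78 per day with DESeq2, which gave no adjusted p. With filterByExpr none of the 4 genes was kept for testing. No paired analysis was possible because each line and day has 1 library, other than the pairing of the lines by day that the test of the line difference already holds. Low counts limit the control line most, where Fibin, Gria1 and Srpx2 had 8 reads or fewer per library from d4 on, so their upper ratio bounds are wide. The control library held fewer reads on genes than that of shDis3l2 at d4, d8, d10 and d12, and more at d6.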
